A study of Mus musculus with 17 samples.

Results

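The mouse mitochondrial genome (mtDNA) carries 9 genes on the strand opposite to most of its coding sequence: mt-Nd6 and the genes of 8 transfer RNAs (tRNAs). These light-strand genes were taken by their strand in the deposited count table, and mt-Tt, the plus-strand gene that abuts mt-Tp, was added, giving 10 genes of the 37 on mtDNA and of 56748 in the table. The set was chosen with the difference between the 2 groups of hearts known, so all values that compare the groups for these 10 genes are descriptions without a test.

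Counts of RNA fragments per gene were available for 17 hearts of mice aged 12 to 16 months. The 9 hMut hearts came from mice of genotype Polg iMut/iMut; +/Ckmm-cre, in which Cre removes a floxed wild-type Polg cassette so that a form of the mtDNA polymerase POLG with impaired proofreading is made. The Ckmm promoter drives Cre in striated muscle, so within the heart the switch is limited to cardiomyocytes and other cells keep the cassette. The 8 control hearts are labelled Ctrl only, and their Polg and Cre alleles, and the sex of each mouse, are not given in the sources used here. No group was treated. RNA was selected by its poly(A) tail, and the study's methods speak of individual hearts, 1 library each, so the spread given below is that between hearts.

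Both mtDNA strands are transcribed from promoters in the noncoding control region into long transcripts that span many genes. In most of these, tRNA sequences sit between the mRNAs and rRNAs and are cut out by enzymes that act at the tRNA ends, which releases the RNAs between them. The light strand yields 1 mRNA, mt-Nd6, and a handful of tRNAs, and most of the remaining light-strand RNA is antisense to other genes and is rapidly degraded. Mature tRNAs have no poly(A) tail and are short. Fragments counted on a tRNA gene in poly(A)-selected libraries are therefore taken as pieces of polyadenylated RNA that touch the gene. They are not a measure of mature tRNA. That they come from polyadenylated RNA was not tested, and nuclear rRNA genes also had counts in every library.

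The sequences below are those of the genes that differed most between the groups or between hearts, read from the GRCm39 reference genome, whose annotation gives the same coordinates as the count table for all 37 mtDNA genes. mt-Tp (chrM:15356-15422, minus strand, tRNA-Pro) is the last gene before the control region, and light-strand transcription reaches it before every other gene. mt-Tt (chrM:15289-15355, plus strand, tRNA-Thr) ends on the base before mt-Tp begins, with 0 bases between them. mt-Ts1 (chrM:6870-6938, minus strand, tRNA-Ser for UCN codons) shares its last 3 bases with the end of mt-Co1. Each is printed 5′ to 3′ on the strand of the gene, with the anticodon in capitals.

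mt-Tp: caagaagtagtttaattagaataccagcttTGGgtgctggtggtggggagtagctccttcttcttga
mt-Tt: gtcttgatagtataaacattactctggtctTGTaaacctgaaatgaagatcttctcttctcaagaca
mt-Ts1: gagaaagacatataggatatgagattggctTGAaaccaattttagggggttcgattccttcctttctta

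The border of mt-Tp with the control region (chrM:15326-15512, plus strand) is shown with mt-Tp in capitals, mt-Tt before it and control region after it.

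mt-Tp border: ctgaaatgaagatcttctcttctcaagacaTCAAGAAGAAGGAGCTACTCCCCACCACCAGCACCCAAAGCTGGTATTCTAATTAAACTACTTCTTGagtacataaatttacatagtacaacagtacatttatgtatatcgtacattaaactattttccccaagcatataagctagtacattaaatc

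mt-Ta (chrM:5018-5086), mt-Tn (chrM:5089-5159), mt-Tc (chrM:5192-5257) and mt-Ty (chrM:5260-5326) form a cluster of 4 minus-strand tRNA genes, for alanine, asparagine, cysteine and tyrosine, between plus-strand mt-Tw and mt-Co1. The 32 bases between mt-Tn and mt-Tc (chrM:5160-5191, plus strand) hold the known origin of light-strand replication. The 3 genes that varied most between hMut hearts and this spacer are printed, the genes on their own strand with the anticodon in capitals.

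mt-Ta: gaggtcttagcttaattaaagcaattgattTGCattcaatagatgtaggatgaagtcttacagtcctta
mt-Tn: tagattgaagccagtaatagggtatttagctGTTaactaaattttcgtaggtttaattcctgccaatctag
mt-Tc: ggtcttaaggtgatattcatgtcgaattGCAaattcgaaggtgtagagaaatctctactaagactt
between mt-Tn and mt-Tc: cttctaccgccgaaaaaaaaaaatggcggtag

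mt-Nd6 (chrM:13552-14070, 519 bases, minus strand), which encodes a membrane subunit of respiratory complex I, overlaps the end of plus-strand mt-Nd5 by 14 bases (chrM:13552-13565). mt-Te (chrM:14071-14139, minus strand, tRNA-Glu) follows it directly on the map, with 0 bases between them. The overlap is printed on the plus strand, because a fragment that crosses it touches both mt-Nd5 and mt-Nd6.

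mt-Nd5 and mt-Nd6 overlap: ttaatctcgagtaa

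Genes lie so close together on mtDNA that position limits what could be counted. mt-Tp had 944 bases that touch no other annotated gene, 877 more than its own length, because nothing is annotated in the control region beside it. mt-Tn and mt-Tc had 105 and 100 such bases, while mt-Tt, mt-Ts1, mt-Ty, mt-Tq, mt-Ta and mt-Te had 67 to 74. In Ctrl hearts mt-Tt held 0 to 7 counts beside mt-Cytb, whose counts began at 1271091 and which mt-Tt adjoins with 0 bases between them. Fragments that span both genes were therefore not added to mt-Tt in any number. Whether counting used the strand of the read is not given in the sources used here, and RNA of the opposite strand cannot be told apart on any of these genes. Reads of near-identical nuclear copies of mtDNA, or of mtDNA carried into a library, cannot be told apart either.

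Total counts per library lay between 32915159 and 46486964. A gene with 3 counts stood at 0.0676 to 0.0951 CPM (counts scaled to 1000000 per library after normalization), and lower values are treated as not detectable. mtDNA genes took 23.5 to 30.9% of counts in Ctrl hearts and 15.9 to 23.0% in hMut hearts. Polg itself was higher in hMut hearts, at 47.0 to 65.1 CPM against 27.1 to 47.2 CPM in Ctrl hearts (adjusted p = 0.000448 by the edgeR quasi-likelihood test over all genes), a row that counts every Polg allele alike. hMut replicates 3, 4 and 5 had the most counts on nuclear rRNA genes, at 9455, 6694 and 4462 CPM. Ctrl replicate 1 came close to hMut replicate 5 at 4328 CPM, while the other 13 hearts had 739 to 2081 CPM. All 10 cardiomyocyte markers were detected, with a summed level of 47853 to 57196 CPM in Ctrl and 36125 to 55867 CPM in hMut hearts. The summed levels of 10 leukocyte markers (178 to 296 against 228 to 982 CPM), 8 fibroblast markers (902 to 1064 against 894 to 2063 CPM) and 8 endothelial markers (1094 to 1282 against 1110 to 1533 CPM) reached higher in hMut hearts, and none of these markers was at 0. Their part in the values below was not tested, and in bulk tissue fewer cells of a type and less RNA per cell cannot be told apart.

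Light-strand genes went in opposite directions in hMut hearts. mt-Tp, beside the control region, was 13.0-fold higher, while the other 7 light-strand genes that passed the filter on low counts had lower mean CPM, by 1.44-fold for mt-Nd6, whose share of mtDNA counts was not lower, to 2.30-fold for mt-Tc. mt-Tt and mt-Ts1, at 0 to 7 counts in Ctrl hearts, had 11 to 688 and 4 to 25935 counts in hMut hearts. Of the 10 genes 9 passed the filter, mt-Ts1 being the exception, and mt-Tt passed only through the hMut hearts. Their median log2 fold change was -0.79, and that of the 8 light-strand genes that passed was -0.89, or -0.99 without mt-Tp, against -0.73 for the other 22 plus-strand mtDNA genes tested and 0.0023 for all 16195 genes tested. Scaled to mtDNA counts the light-strand median was -0.48. Of the 9, 7 were past an adjusted p of 0.05 in the fit over all genes (2 higher, 5 lower), where 4.62% of all genes were called, 3.48% higher and 1.14% lower. Since the set was chosen on this contrast, nothing is read from that count. It was 4 (2 higher, 2 lower) without the 3 libraries richest in nuclear rRNA. In that fit 197 of 16313 genes tested were called, 180 higher and 17 lower.

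**Figure D1:**
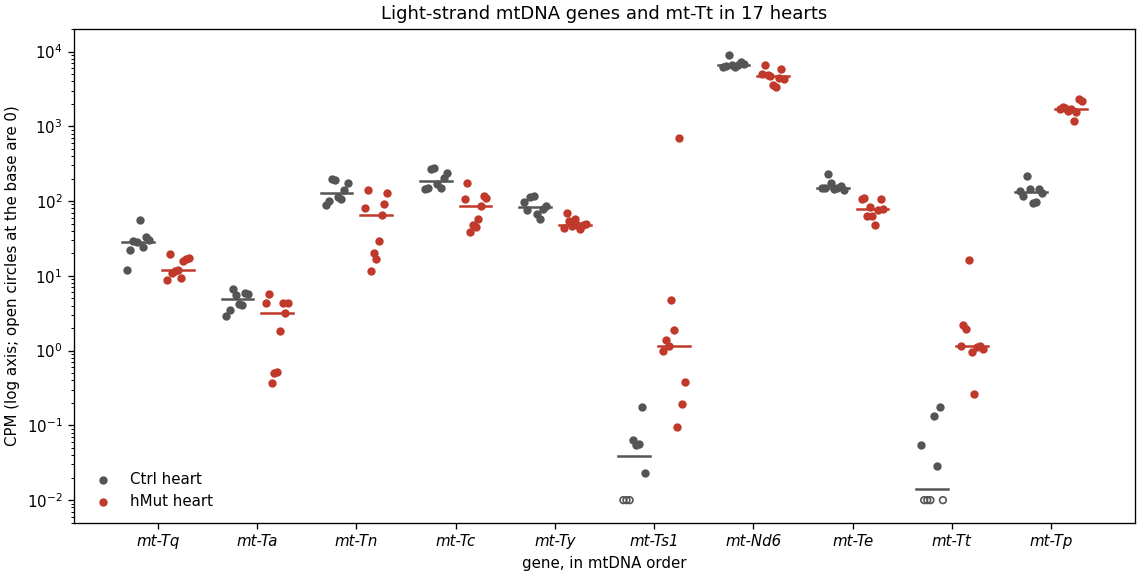
CPM (log axis) of the 10 genes in mtDNA order, 1 point per heart, 8 Ctrl hearts in grey and 9 hMut hearts in red, with a line at each group's median and open circles for hearts at 0. mt-Tp and mt-Tt separate the groups upwards and mt-Te downwards, mt-Ts1 is above every Ctrl heart in 8 of 9 hMut hearts with 1 heart at 705 CPM, and mt-Tn and mt-Ta spread most widely within hMut among the genes that were lower.

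mt-Tp, the gene of tRNA-Pro, had the lowest, median and highest levels of 95.2, 132 and 215 CPM in the 8 Ctrl hearts and of 1180, 1702 and 2317 CPM in the 9 hMut hearts. The groups did not overlap, and the lowest hMut heart was far above the highest Ctrl heart. Every hMut heart lay above every Ctrl heart for 0.543% of all genes tested. In raw counts the gene went from 3432 to 6791 per Ctrl library to 49792 to 97528 per hMut library, with 613950 counts over the 9. The mean was 135 CPM ± 37.9 (SD, n = 8) in Ctrl and 1752 CPM ± 340 (SD, n = 9) in hMut hearts, a log2 fold change of 3.70 ± 0.17 (SE). Set against all mtDNA counts of the same library it was 4.28 ± 0.11 (SE). hMut hearts varied no more than Ctrl hearts in proportion, with a coefficient of variation of 19.4% against 28.1%. Ctrl replicate 3 had the highest Ctrl level of mt-Tp and also the largest mtDNA share of all libraries, 30.9%.

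The make-up of the light-strand counts differed between the groups. mt-Tp held 1.36 to 2.15% of all light-strand counts in Ctrl hearts and 20.2 to 32.0% in hMut hearts. mt-Nd6 held 87.6 to 91.8% in Ctrl and 62.4 to 74.0% in hMut hearts, so neither share overlapped between the groups. Relative to the mt-Nd6 count of the same library, mt-Tp stood at 1.94% ± 0.32 (SD, n = 8) in Ctrl and 37.6% ± 7.34 (SD, n = 9) in hMut hearts. Relative to mt-Cytb, which lies on the far side of mt-Tt and codes on the opposite strand, it stood at 0.334% ± 0.060 (SD, n = 8) and 7.45% ± 1.51 (SD, n = 9). Light-strand genes as a whole took 2.73% ± 0.17 (SD, n = 8) of mtDNA counts in Ctrl and 3.62% ± 0.26 (SD, n = 9) in hMut hearts. All 9 hMut hearts were above all Ctrl hearts in that share. mt-Nd6 took 2.46 and 2.49% of mtDNA counts, with overlapping ranges. The tRNA genes other than mt-Tp took 0.222% ± 0.034 (SD, n = 8) and 0.196% ± 0.121 (SD, n = 9), also with overlapping ranges. For these tRNA genes hMut replicate 7 stood at 0.498% through its mt-Ts1 counts, and the other hMut hearts at 0.101 to 0.217%. The higher share thus lay in mt-Tp, and in replicate 7 in part in mt-Ts1.

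mt-Tt, the gene of tRNA-Thr on the plus strand, was close to absent from Ctrl libraries. Ctrl replicates 1 to 8 held 2, 0, 0, 0, 5, 1, 7 and 0 counts, a sum of 15. hMut replicates 1 to 9 held 42, 79, 78, 688, 34, 11, 41, 42 and 47 counts, a sum of 1062. Every hMut heart lay above every Ctrl heart in CPM, at 0.261 to 16.4 against 0 to 0.174, with replicate 4 far above the next hMut heart at 2.17. Such a separation upwards held for 0.543% of all genes tested. The closest pair of hearts had few counts, 11 in hMut replicate 6 and 7 in Ctrl replicate 7. The fitted log2 fold change of 5.75 ± 0.96 (SE) depends on the small count added to the zeros and on replicate 4, and was 4.49 ± 0.57 (SE) without it. Its median count was 0.5 in Ctrl and 42 in hMut hearts.

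mt-Tt and mt-Tp are direct neighbours on opposite strands, so their ratio within a library was taken. log2((mt-Tp + 0.5)/(mt-Tt + 0.5)) was 11.8 ± 1.76 (SD, n = 8) in Ctrl and 10.2 ± 1.53 (SD, n = 9) in hMut hearts, a difference of -1.59 that was within the spread between hearts and that changed sign, to 0.54, when 5 counts were added in place of 0.5. The direction of this ratio therefore could not be set at these mt-Tt counts. Across the hearts of 1 group, a comparison the choice of genes did not use, the correlation of mt-Tp with mt-Tt did not pass the test. Pearson's r of log2 CPM was -0.32 in Ctrl (adjusted p = 0.54) and 0.19 in hMut hearts (adjusted p = 0.591, exact two-sided permutation test, 6 relations). Spearman's rho was -0.16 (adjusted p = 0.695) and 0.28 (adjusted p = 0.556, exact two-sided permutation test). Without the 2 hearts farthest from the median of mt-Tp, r was 0.29 and -0.34.

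**Figure D2:**
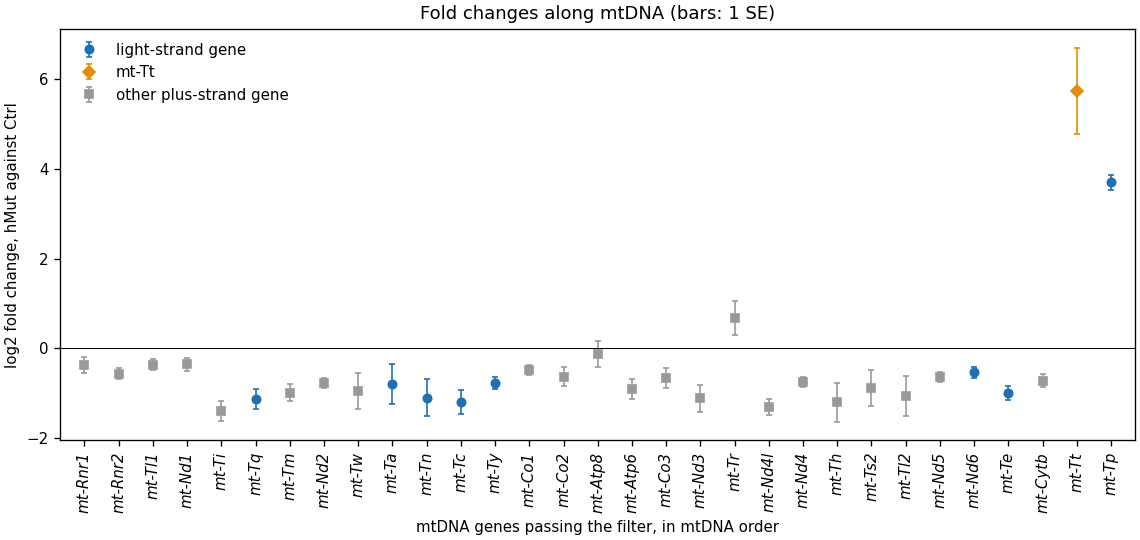
log2 fold change of hMut against Ctrl for the 31 mtDNA genes that passed the filter, in mtDNA order, with bars of 1 SE; light-strand genes are blue circles, mt-Tt an orange diamond and the other plus-strand genes grey squares. mt-Tt (5.75) and mt-Tp (3.70) at the right end stand above all others, mt-Tr is the only other gene above 0 (0.68), and the other light-strand genes (-1.20 to -0.53) lie among the plus-strand genes; mt-Nd6 is at 0.014 when set against mtDNA counts alone.

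mt-Ts1, the gene of the UCN-reading tRNA-Ser that follows mt-Co1, was the least counted light-strand gene in Ctrl hearts. Ctrl replicates 1 to 8 held 0, 0, 0, 2, 2, 2, 7 and 1 counts. hMut replicates 1 to 9 held 36, 50, 47, 202, 67, 4, 25935, 7 and 17 counts. Replicate 7 alone supplied nearly all of the 26365 hMut counts and stood at 705 CPM, where the next hMut heart, replicate 4, stood at 4.82 CPM. In CPM, 8 of 9 hMut hearts lay above every Ctrl heart, replicate 6 being the exception at 0.0948 against a highest Ctrl value of 0.174. As a share of mtDNA counts all 9 hMut hearts were above all Ctrl hearts, but the closest pair of hearts had few counts. The lowest hMut share was that of replicate 6, with 4 counts, and the highest Ctrl share that of replicate 7, with 7 counts. Their order on this scale came from the smaller mtDNA total of hMut replicate 6, and nothing is read from it. No group mean is given as a summary, since 1 heart sets it. In replicate 7 the counts on mt-Ts1 came to 0.827% of those on its plus-strand neighbour mt-Co1, where the hMut median was 0.00140% and the Ctrl median 3.75e-05%. Replicate 7 was not set apart by mt-Tp (1546 CPM) or mt-Tt (1.11 CPM), which lay within the range of the other hMut hearts.

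mt-Nd6 was by far the most counted light-strand gene, and the only one that encodes a protein. Its lowest, median and highest levels were 6128, 6566 and 8963 CPM in Ctrl hearts and 3401, 4635 and 6585 CPM in hMut hearts. 8 of the 9 hMut hearts lay below every Ctrl heart, and replicate 2 at 6585 CPM lay inside the Ctrl range. The mean was 6860 CPM ± 938 (SD, n = 8) in Ctrl and 4751 CPM ± 1012 (SD, n = 9) in hMut hearts, a log2 fold change of -0.53 ± 0.12 (SE) on the scale of the whole library. Set against mtDNA counts of the same library the difference turned to 0.014 ± 0.056 (SE), since mt-Nd6 took 2.46% ± 0.16 (SD, n = 8) of mtDNA counts in Ctrl and 2.49% ± 0.23 (SD, n = 9) in hMut hearts. The ranges of that share overlapped, at 2.24 to 2.66% and 2.17 to 2.82%. The direction of mt-Nd6 thus depended on the scale.

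The partner of mt-Nd6 on the other strand is mt-Nd5, a complex I mRNA whose end it overlaps. The mt-Nd6 count came to 20.9% ± 1.17 (SD, n = 8) of the mt-Nd5 count in Ctrl and to 22.5% ± 2.09 (SD, n = 9) in hMut hearts, and the ranges overlapped. RNA of the opposite strand could not be told apart on mt-Nd6 or mt-Te. How much of their counts is plus-strand RNA, that of mt-Nd5 included, was not tested. Within each group the 2 genes varied together on the library scale. Pearson's r of log2 CPM was 0.95 in Ctrl (adjusted p = 0.000446) and 0.91 in hMut hearts (adjusted p = 0.00231, exact two-sided permutation test), with Spearman's rho of 0.98 (adjusted p = 0.00238) and 0.92 (adjusted p = 0.00394, exact permutation test). Without the 2 hearts farthest from the median of mt-Nd6, r was 0.91 and 0.86. As shares of mtDNA counts the relation no longer passed in either group, with r of 0.58 in Ctrl and 0.48 in hMut hearts (adjusted p = 0.382 in both, exact permutation test). Among 16194 other genes, those whose deviations from the group means over 17 hearts followed mt-Nd6 most closely were mt-Nd5 (r = 0.91), Cd1d1 (0.89) and Ramac (0.89), and for mt-Tp they were Chn1 (0.84), Sypl (0.82) and Rasl12 (0.82). As the highest of 16194 values over few hearts, these r were not tested and are given as a description.

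mt-Te, the gene of tRNA-Glu that adjoins mt-Nd6, was lower in hMut hearts with no overlap between the groups. Its lowest, median and highest levels were 142, 150 and 234 CPM in Ctrl hearts and 48.3, 77.7 and 112 CPM in hMut hearts. Every hMut heart lay below every Ctrl heart for 0.0617% of all genes tested. The mean was 163 CPM ± 30.5 (SD, n = 8) in Ctrl and 82.0 CPM ± 22.4 (SD, n = 9) in hMut hearts, a log2 fold change of -0.99 ± 0.15 (SE). As a share of mtDNA counts the log2 difference was -0.46 ± 0.092 (SE), and 8 of 9 hMut hearts were below every Ctrl heart. Relative to mt-Nd6 it stood at 2.37% ± 0.20 (SD, n = 8) in Ctrl and 1.72% ± 0.25 (SD, n = 9) in hMut hearts, with 8 of 9 hMut hearts below every Ctrl heart.

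Across hearts of 1 group mt-Te followed mt-Nd6 in hMut hearts. Pearson's r of log2 CPM was 0.86 in hMut hearts (adjusted p = 0.00611) and rho was 0.80 (adjusted p = 0.0277, exact two-sided permutation test), and r was 0.72 without the 2 hearts farthest from the median. In Ctrl hearts r was 0.87 (adjusted p = 0.0461) but rho was 0.52 (adjusted p = 0.295, exact permutation test). It fell to 0.12 without Ctrl replicates 3 and 7, so in Ctrl the relation rested on those hearts. As shares of mtDNA counts r was 0.46 in Ctrl and 0.45 in hMut hearts (adjusted p = 0.382 in both, exact permutation test).

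**Figure D3:**
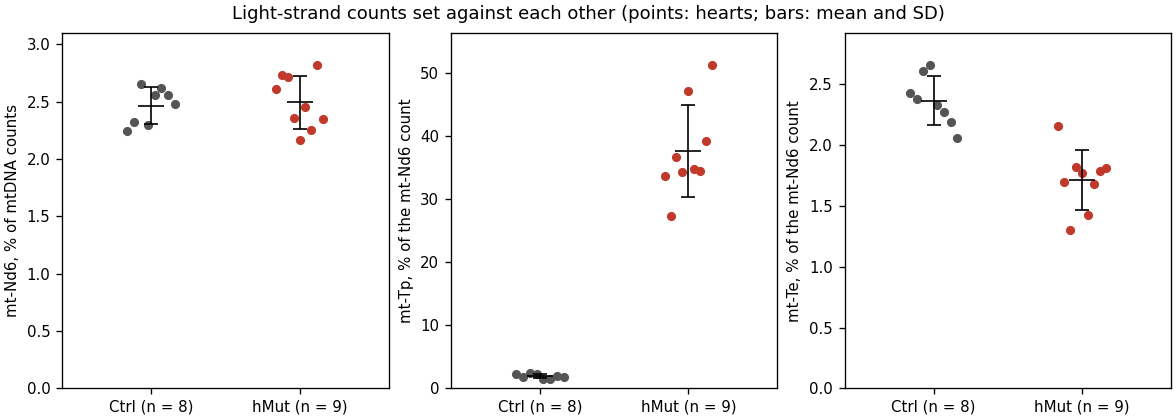
Counts set against each other within each library, 1 point per heart (grey, 8 Ctrl; red, 9 hMut) with mean and SD, on axes from 0: mt-Nd6 as % of mtDNA counts, mt-Tp as % of the mt-Nd6 count and mt-Te as % of the mt-Nd6 count. The groups overlap for mt-Nd6 (2.46 against 2.49%), separate widely upwards for mt-Tp (1.94 against 37.6%) and lie lower in hMut for mt-Te (2.37 against 1.72%).

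The cluster of mt-Ta, mt-Tn, mt-Tc and mt-Ty was lower in mean CPM in hMut hearts, and its first 3 genes varied more widely between hMut hearts than mt-Ty. mt-Tc, the gene of tRNA-Cys, had the lowest, median and highest levels of 145, 186 and 277 CPM in Ctrl and 38.9, 86.4 and 176 CPM in hMut hearts. All hMut hearts but replicate 2 lay below every Ctrl heart, and the log2 fold change was -1.20 ± 0.27 (SE). mt-Tn, the gene of tRNA-Asn on the other side of the replication origin, had 87.3, 127 and 195 CPM in Ctrl and 11.7, 64.5 and 140 CPM in hMut hearts. Of the hMut hearts, 6 lay below every Ctrl heart and 3 lay inside the Ctrl range, with a log2 fold change of -1.10 ± 0.42 (SE). mt-Ta, the gene of tRNA-Ala, was the least counted of the cluster, with 2.86, 4.91 and 6.72 CPM in Ctrl and 0.370, 3.18 and 5.69 CPM in hMut hearts. Its groups overlapped in 5 of 9 hMut hearts, and the log2 fold change was -0.79 ± 0.44 (SE). As shares of mtDNA counts the log2 difference was -0.76 ± 0.24 (SE) for mt-Tc, with 5 of 9 hMut hearts below every Ctrl heart. For mt-Tn it was -0.95 ± 0.43 (SE), with 4 hMut hearts below and 1 above every Ctrl heart. For mt-Ta it was -0.75 ± 0.51 (SE), and hMut hearts went both ways, 3 below and 4 above every Ctrl heart.

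mt-Ty, the gene of tRNA-Tyr next to mt-Co1, was lower and even across hMut hearts. Its lowest, median and highest levels were 57.7, 82.5 and 116 CPM in Ctrl and 41.9, 48.5 and 68.9 CPM in hMut hearts, a log2 fold change of -0.77 ± 0.13 (SE). Of the hMut hearts, 7 lay below every Ctrl heart and 2 inside the Ctrl range. The highest hMut heart had 1.65 times the lowest for mt-Ty, against 4.52 times for mt-Tc, 11.9 times for mt-Tn and 15.4 times for mt-Ta. Some plus-strand tRNA genes spread as widely, at 15.8 times for mt-Tw, which adjoins mt-Ta, 13.2 times for mt-Tl2 and 10.6 times for mt-Th. As a share of mtDNA counts the log2 difference of mt-Ty was -0.19 ± 0.13 (SE), and 2 of 9 hMut hearts were then below every Ctrl heart.

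The hMut hearts with the least mt-Ta, mt-Tn and mt-Tc were replicates 3, 4 and 5. They stood at 0.370, 0.501 and 0.511 CPM for mt-Ta and at 38.9, 47.3 and 45.2 CPM for mt-Tc. For mt-Tn all 3 were below the next hMut heart, replicate 6, at 29.3 CPM. These are the same 3 libraries that had the most counts on nuclear rRNA genes, and Ctrl replicate 1, next in nuclear rRNA, had the lowest Ctrl levels of mt-Ta, mt-Tn and mt-Tc. For mt-Ty the same replicates stood at 54.2, 46.5 and 57.9 CPM, around the hMut median of 48.5 CPM. Without these 3 libraries the log2 fold changes were -0.29 for mt-Ta, -0.64 for mt-Tn and -0.88 for mt-Tc. Leaving them out removed only hMut hearts, the lowest for these genes, and kept Ctrl replicate 1. A part of the nuclear rRNA counts in these values was not tested. Over 17 hearts the deviations from the group means correlated at r = 0.95 between mt-Ta and mt-Tn, 0.97 between mt-Tn and mt-Tc and 0.91 between mt-Ta and mt-Tc, against 0.013, 0.15 and 0.33 between mt-Ty and mt-Ta, mt-Tn and mt-Tc, values that share library and depth and are given as a description.

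**Figure D4:**
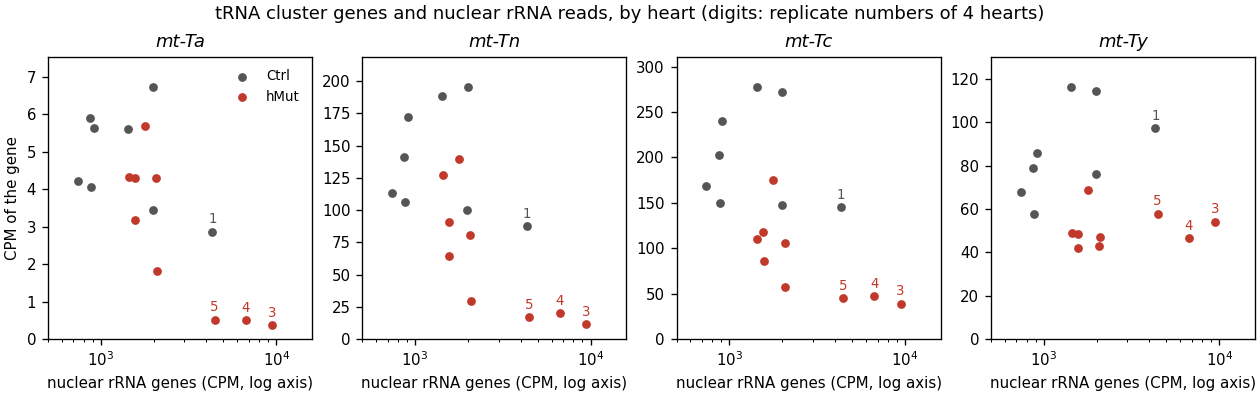
CPM of mt-Ta, mt-Tn, mt-Tc and mt-Ty (each on its own axis from 0) against the CPM of nuclear rRNA genes (log axis), 1 point per heart, 8 Ctrl in grey and 9 hMut in red, with the replicate numbers of hMut 3, 4 and 5 and of Ctrl 1 marked. The marked hMut hearts are lowest for the first 3 genes, at 0.370 to 0.511 CPM for mt-Ta, and are not lowest for mt-Ty.

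mt-Tq, the gene of tRNA-Gln between mt-Ti and mt-Tm, was the light-strand gene farthest from mt-Tp along the direction of light-strand transcription. Its lowest, median and highest levels were 12.0, 28.8 and 55.3 CPM in Ctrl and 8.85, 12.1 and 19.3 CPM in hMut hearts. Only 4 of 9 hMut hearts lay below every Ctrl heart, because Ctrl replicate 1 was as low as the median of the hMut group. The log2 fold change was -1.12 ± 0.23 (SE), and -0.50 ± 0.25 (SE) as a share of mtDNA counts, where no hMut heart lay below every Ctrl heart. It shares 3 bases with plus-strand mt-Ti, the gene of tRNA-Ile, which was lower in hMut hearts at -1.40 ± 0.22 (SE, adjusted p = 0.00116 by edgeR).

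Per kilobase of gene, the Ctrl order from the top was mt-Nd6 (13217 CPM per kb), mt-Tc (3037), mt-Te (2358), mt-Tp (2011), mt-Tn (1944), mt-Ty (1297), mt-Tq (415), mt-Ta (69.7), mt-Tt (0.731) and mt-Ts1 (0.673). Within single Ctrl hearts, mt-Tp lay above mt-Tn in 4 of 8, mt-Tt above mt-Ts1 in 3 of 8 and mt-Tn above mt-Ty in 7 of 8, while every other neighbouring pair held its order in all 8, so mt-Tp and mt-Tn, and mt-Tt and mt-Ts1, have no settled order. In hMut hearts mt-Tp came first at 26155 CPM per kb, ahead of mt-Nd6 at 9153 CPM per kb. The level of mt-Tp per kilobase is on the scale of its 67 annotated bases, although its counts can come from fragments that extend into the control region.

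The other genes of mtDNA are the setting for these values. Of 27 other plus-strand genes 22 were tested, 11 of them were called and all 11 were lower, with a median log2 fold change of -0.73. Their 14 mRNA and rRNA genes had a median of -0.64 and 9 calls, and the 8 tested of their 13 tRNA genes had a median of -0.97 and 2 calls. The plus-strand tRNA genes that did not pass the filter had few counts. More fell on hMut hearts for mt-Tv (20 over Ctrl, 87 over hMut), mt-Td (44 and 89) and mt-Tk (20 and 54). mt-Tg had 9 and 3, and mt-Tf 0 and 1. mt-Tv lay above every Ctrl heart in 5 of 9 hMut hearts, and mt-Tk in 4, with 1 below. mt-Cytb, the mRNA that ends where mt-Tt begins, was at -0.72 ± 0.14 (SE, adjusted p = 0.00743 by edgeR). All 9 hMut hearts lay below every Ctrl heart for it, as for 0.0617% of all genes tested. The 7 light-strand genes other than mt-Tp that passed the filter lay within the range of these 22 plus-strand genes, -1.40 to 0.68, and mt-Ts1, which did not pass, had 14 counts over the Ctrl and 26365 over the hMut hearts.

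Nuclear genes that make, cut and protect mtDNA transcripts were compared in the same fit, and 3 of 50 in 4 lists were called, close to the 4.62% of all genes. DESeq2 called 4 of the 50 and 1502 of 35739 genes in all, and limma-voom 6 of the 50 and 2081 of 16195. Counts at an unadjusted p are given below without a share over all genes, and nothing is read from them. None of the 10 genes of mtDNA transcription was called by edgeR, with 1 at an unadjusted p under 0.05 and 0 by DESeq2 or limma-voom, and their median log2 fold change was -0.080. Polrmt, the mitochondrial RNA polymerase, was at -0.092 ± 0.066 (SE, adjusted p = 0.374), Tfam, which packages mtDNA and is needed at its promoters, at -0.082 ± 0.045 (SE, adjusted p = 0.248) and Tfb2m, the promoter-melting factor, at -0.12 ± 0.054 (SE, adjusted p = 0.179). Mterf2 (adjusted p = 0.253), of the family of mitochondrial transcription termination factor-like proteins, was at -0.24 ± 0.13 (SE). Of 16 genes of mitochondrial tRNA processing 2 rose, with a median over the list of -0.0074. In all, 6 had an unadjusted p under 0.05, and DESeq2 called 3 and limma-voom 4 of the 16. The 2 called by edgeR were Pus1 and Qtrt1. Pus1, which makes pseudouridine in tRNAs, was at 0.28 ± 0.063 (SE, adjusted p = 0.0170). Qtrt1, which puts queuosine into tRNA anticodons, was at 0.31 ± 0.083 (SE, adjusted p = 0.0404). Yrdc, which serves tRNA modification at adenosine 3′ of the anticodon, was at 0.20 ± 0.057 (SE, adjusted p = 0.0529) and was called by DESeq2 (adjusted p = 0.0239).

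The enzymes that cut the tRNA ends were not among the called genes. Trmt10c, a subunit of the mitochondrial RNase P that cuts at the 5′ end, was at 0.0056 ± 0.043 (SE, adjusted p = 0.947), and Elac2, which cuts at the 3′ end, at 0.13 ± 0.047 (SE, adjusted p = 0.108). Of 13 genes of mitochondrial RNA stability and light-strand RNA decay, 1 rose, Rexo2, an exonuclease of very short RNAs (0.24 ± 0.057 SE, adjusted p = 0.0210), and the list median was -0.11. In this list 6 genes had an unadjusted p under 0.05, and DESeq2 called 1 and limma-voom 2. Supv3l1 (-0.12 ± 0.062 SE, adjusted p = 0.218) and Pnpt1 (-0.013 ± 0.057 SE, adjusted p = 0.904), helicase and exonuclease of the mitochondrial degradosome, did not pass. Grsf1, which serves the degradation of light-strand RNA, was at -0.12 ± 0.053 (SE, adjusted p = 0.175). Lrpprc, which stabilizes mitochondrial mRNAs, was at -0.21 ± 0.082 (SE, adjusted p = 0.134), Fastk, required for mt-Nd6 mRNA, at -0.15 ± 0.073 (SE, adjusted p = 0.191) and Fastkd1, of the same family, at -0.19 ± 0.068 (SE, adjusted p = 0.108).

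None of the 11 genes of aminoacylation of these tRNAs was called by edgeR, with 3 at an unadjusted p under 0.05 and 0 by DESeq2 or limma-voom. All 11 had negative log2 fold changes, with a median of -0.11. Pars2, the prolyl-tRNA synthetase that charges the product of mt-Tp, was at -0.10 ± 0.066 (SE, adjusted p = 0.331), and Tars2, the threonyl-tRNA synthetase for that of mt-Tt, at -0.033 ± 0.058 (SE, adjusted p = 0.740). Nars2 (-0.18 ± 0.072 SE, adjusted p = 0.126), Cars2 (-0.23 ± 0.096 SE, adjusted p = 0.149) and Gatb (-0.16 ± 0.073 SE, adjusted p = 0.184) had the smallest adjusted p of the list. The 3 calls over the 4 lists became 0 of 50 without the 3 libraries richest in nuclear rRNA, where edgeR adjusted p was 0.0979 for Pus1, 0.138 for Qtrt1 and 0.0957 for Rexo2. That fit had fewer hMut hearts and the same Ctrl hearts, and called 197 of 16313 genes.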

How the data were processed

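RNA-seq was measured in 17 heart libraries, 9 hMut and 8 Ctrl, grouped by GEO's labels. The authors selected poly(A) RNA, cleaned reads with fastp, mapped the clean reads with HISAT2 (version 2.2.1) to GRCm39, counted genes with featureCounts (version 2.0.6), and deposited raw counts that were not normalized. The methods describe no strand-marking step, and how counting treated strand, multimapping reads and reads on several genes is not given in the sources used here. The members and gene lists were chosen with earlier results of these data known.

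Counts were scaled by TMM, filtered with filterByExpr and fitted with edgeR (version 4.0.16, R 4.3.3, quasi-likelihood test, group as the only term), with Benjamini-Hochberg adjusted p over 16195 genes and a threshold of 0.05. The SE was taken as the absolute log2 fold change over the root of F. DESeq2 (version 1.42.0), limma-voom (limma version 3.58.1), other scalings and filters, a replicate block and each library left out in turn were alternatives. Members were also scaled to the total count on mtDNA genes, as differences of mean log2 values with an offset of 0.5 counts. CPM correlations used log2(CPM + 0.05). On simulated counts for 16046 genes, 183 of 199 changed genes and 7 unchanged genes were called. There were 0 of the wrong sign and 0 calls when none was changed. The planted changes were larger than those of the pathway genes and lay in genes with more counts than mt-Tt or mt-Ts1 in Ctrl hearts. The simulation therefore does not cover such genes, and differences in make-up between libraries were not simulated. Same-numbered hearts correlated at -0.23 to 0.34 in their deviations, with their own number best in 1 of 8. These values cannot exclude that the numbers mark a pairing or a batch, and the labels name neither.

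The genes named are the 10 members, their plus-strand neighbours on mtDNA, Polg, 11 genes taken for their roles, the 3 with the smallest adjusted p in each pathway list and the 3 most alike mt-Nd6 and mt-Tp in their deviations. mt-Tr, mt-Tl2, mt-Th, mt-Tv, mt-Tk, mt-Tg and mt-Tf were named after their values were seen. The sequences come from the GRCm39 genome with GENCODE coordinates.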

Additional observations from a re-analysis of the deposited data

Results flagged for a closer look

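Single hearts stood apart from the rest of their group in 7 of 24 checks, where the gap to the nearest heart was compared with the range of the group (Dixon's 95% limit, 0.526 for 8 hearts and 0.493 for 9). Chance alone singles out about 5% of groups. Ctrl replicate 3 was the highest Ctrl heart for mt-Nd6 (8963 CPM), mt-Te (234 CPM) and mt-Tp (215 CPM), and had the largest mtDNA share of all libraries (30.9%). hMut replicate 7 stood at 705 CPM for mt-Ts1, with 25935 counts against 4 to 202 in the other hMut hearts. Ctrl replicate 7 stood at 0.174 CPM for mt-Ts1, from 7 counts. hMut replicate 4 stood at 16.4 CPM for mt-Tt and, as a result of it, had the lowest log2 ratio of mt-Tp to mt-Tt, 6.59. It also had the second-highest nuclear rRNA level (6694 CPM). A link of any of these with library composition or with the mtDNA of the single heart was not tested.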

How the results depend on the processing

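Of the member values, mt-Nd6 turned from -0.53 to 0.014 when scaled to mtDNA counts, mt-Tp moved from 3.70 to 4.28, mt-Te from -0.99 to -0.46, mt-Tq from -1.12 to -0.50, mt-Ty from -0.77 to -0.19 and the light-strand median from -0.89 to -0.48 on that scale, and mt-Tt moved from 5.75 to 4.40 without the 3 libraries richest in nuclear rRNA, an alternative chosen after seeing the data. The mt-Tp to mt-Tt ratio difference turned from -1.59 to 0.54 with an offset of 5 counts. As shares of mtDNA counts, r of mt-Tp with mt-Tt in hMut hearts turned to -0.24, and r of mt-Nd6 with mt-Te (0.46 in Ctrl, 0.45 in hMut) and with mt-Nd5 (0.58 and 0.48) no longer passed (adjusted p = 0.382, exact permutation test). In each of these the cause was not tested.

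Genes called over the whole table were 749, and 1502 with DESeq2 (35739 genes tested), 2081 with limma-voom, 463 with every gene of at least 1 count, 197 without the 3 rRNA-rich libraries and 395 to 1792 with each library left out, lowest without hMut replicate 5 and highest without hMut replicate 2. With the replicate number as a block 195 genes were called, 5 of 9 members (mt-Nd6 and mt-Tc no longer) and 0 of 50 pathway genes, where edgeR adjusted p was 0.0749 for Pus1, 0.158 for Qtrt1 and 0.0975 for Rexo2. The labels give no pairing by number, and the block leaves hMut replicate 9, which has no Ctrl heart of its number, without weight. Without the 3 rRNA-rich libraries pathway calls were 0 too. Low counts limit mt-Tt, mt-Ts1 and mt-Ta.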
